A study of Homo sapiens with 4 samples.

Results

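The miR-34 and miR-449 microRNAs (miRNAs) were followed in U2OS, a human osteosarcoma line, through 9 assays of a PCR plate set that held 737 different miRNA assays. The members were taken by name and are hsa-miR-34a, hsa-miR-34a*, hsa-miR-34b, hsa-miR-34b*, hsa-miR-34c-5p, hsa-miR-34c-3p, hsa-miR-449a, hsa-miR-449b and hsa-miR-449b*, written below without the species prefix. No assay for miR-449c was among the wells analysed here. Of the 4 samples, the shDDX1 cells carried a lentiviral short hairpin RNA against DDX1, an RNA helicase of the DEAD-box group, while the shNS cells carried a control short hairpin RNA, both under puromycin selection at 2 µg/ml. The NCS cells were given the enediyne neocarzinostatin, which makes DNA double-strand breaks, for 6 h at 500 ng/ml, and the untreated cells received none. The pairs share no sample. The labels do not say whether the lentiviral cells were a clone or a pool, and give 1 sample per group, so differences stand without replicates and without p-values. Depletion of DDX1 itself could not be checked, because these plates measure miRNAs.

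The miR-34 family is known for its direct transcriptional induction by p53, which U2OS cells retain in wild-type form, and for repressing cell-cycle and survival mRNAs. The miR-449 miRNAs share the miR-34 seed, the stretch of the miRNA that pairs with its targets, and are best known from multiciliated epithelium, where E2F1 is among their described activators. A hairpin is cut by Drosha and Dicer into a 5p and a 3p arm, and usually one of the arms is loaded into Argonaute more often. Older assay names mark the rarer arm with an asterisk, so that miR-34a* is the 3p arm of its hairpin, whereas miR-34b* is the 5p arm and miR-34b the 3p arm.

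Sequences were found in RefSeq (GRCh38.p14) for 8 of the 9 assays, those other than miR-34c-5p, and are shown because the arms differ in their seed, printed in capitals as bases 2 to 8. The 5p arms shown carry GGCAGUG, as the seed or, in miR-34b*, shifted by 1 base.
miR-34a: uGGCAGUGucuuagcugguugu
miR-449a: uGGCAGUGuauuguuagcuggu
miR-449b: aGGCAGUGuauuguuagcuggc
miR-34b*: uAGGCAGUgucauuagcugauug
The 3p arms carry other seeds.
miR-34a*: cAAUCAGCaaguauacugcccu
miR-34b: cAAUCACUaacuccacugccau
miR-34c-3p: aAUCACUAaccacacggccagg
miR-449b*: cAGCCACAacuacccugccacu

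The RefSeq table held no mature entry for miR-34c-5p, so its seed could not be compared. Among the 2351 different mature sequences of that table, the GGCAGUG seed was found in the entries for miR-34a, miR-449a and miR-449b. miR-34b* holds the same letters from base 3, and its own seed was shared with 2 miRNAs that are not on the list of members, miR-449c-5p and miR-2682-5p. Aligned on GGCAGUG, miR-449a and miR-449b were identical at 20 of 21 bases, miR-34a and miR-449a at 14 of 21 and miR-34a and miR-34b* at 12 of 21. Cross-reaction between the near-identical miR-449a and miR-449b assays was not tested. None of the 3p arms shared its seed with another entry.

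The hairpins lie at 3 places in GRCh38.p14. MIR34A is at chr1:9151668-9151777 on the minus strand, within the span of the noncoding host gene MIR34AHG. MIR34B at chr11:111512938-111513021 and MIR34C at chr11:111513439-111513515 are on the plus strand, 417 bases apart, and both lie within the spans of MIR34BHG and BTG4. MIR449A at chr5:55170532-55170622 and MIR449B at chr5:55170646-55170742 are on the minus strand, 23 bases apart, within the span of CDC20B. Exons and introns were not annotated in the table used.

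Each value is a quantification cycle (Ct), where a later cycle means less template and 1 cycle was taken as 1 doubling. An assay was called quantified in a comparison where Ct was under 35 in both samples, and higher or lower where the centred log2 ratio reached 2-fold. Assays can differ in efficiency, so Ct values are compared within an assay and not between assays. Of 740 miRNA wells, 723 read under 35 in shDDX1, 732 in shNS, 591 in NCS and 521 in untreated cells, as did 9, 9, 9 and 7 of the members. miRNAs common in adherent and mesenchymal lines, such as miR-21, all read under 35 in the 4 samples, with a median Ct of 21.7 in shDDX1, 21.7 in shNS, 25.4 in NCS and 25.3 in untreated cells over 8 assays. Of 12 assays for miRNAs of liver, blood, muscle, neuron and pancreas, 12, 12, 11 and 10 also read under 35, at later medians of 28.2, 27.8, 32.4 and 32.03 in the same order. A Ct under 35 was therefore also read from assays for miRNAs of other tissues.

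**Figure D1:**
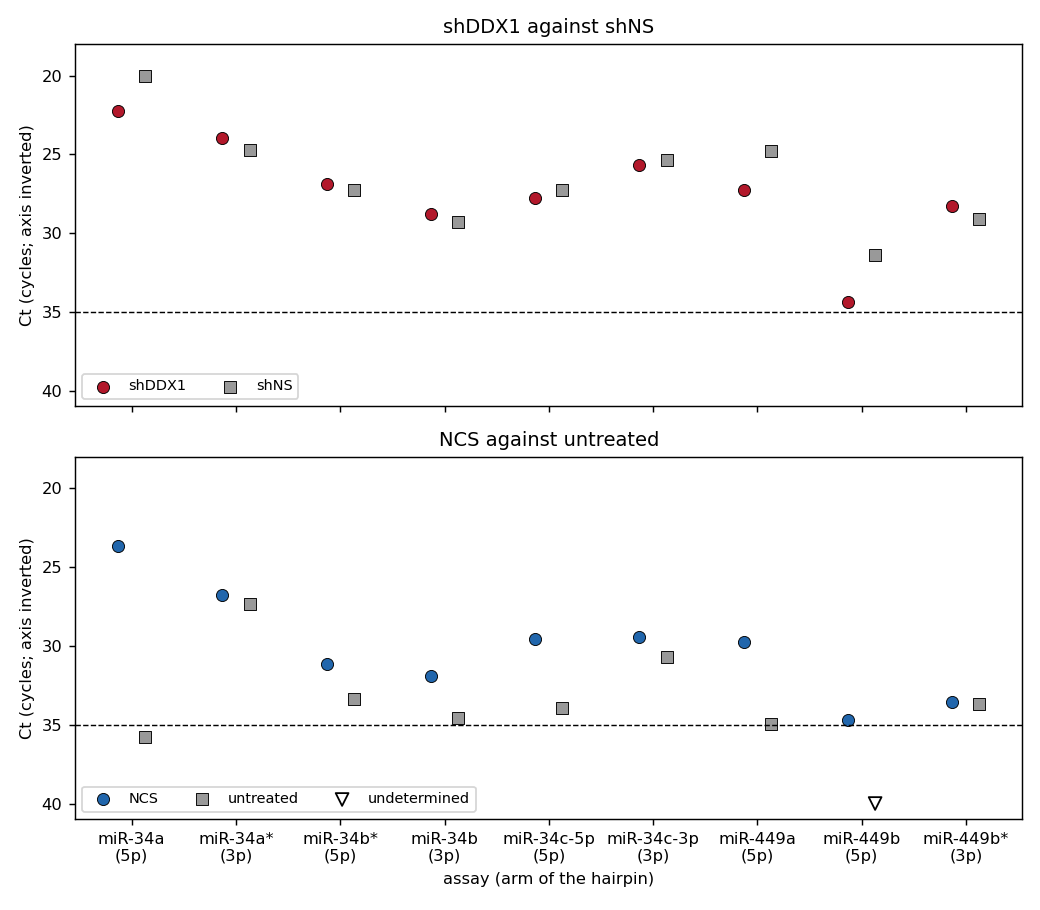
Ct of the 9 assays in shDDX1 and shNS cells (upper) and in NCS-treated and untreated cells (lower), 1 sample each, with the axis inverted so that more template is higher and the dashed line at Ct 35. The widest gap is that of miR-34a, at Ct 23.6 in NCS and 35.8 in untreated cells, and miR-449b was undetermined in untreated cells (open triangle).

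After NCS, 3 of the 4 assays for the chromosome 11 hairpins, together with miR-449a and miR-34a, were at least 2-fold higher. miR-34c-5p, the 5p arm of miR-34c, read Ct 29.6 in NCS and 33.9 in untreated cells. Its centred log2 ratio was 3.64, or 12.5-fold higher. miR-34b*, the 5p arm of the neighbouring hairpin, read 31.1 in NCS and 33.3 in untreated cells, 2.74-fold higher. The opposite arm miR-34b read 31.9 in NCS and 34.6 in untreated cells, 3.75-fold higher. All of these untreated readings lay within the last 2 cycles before the limit.

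miR-449a read 29.8 in NCS and 34.97 in untreated cells, a reading only just inside the limit. Its log2 ratio was 4.47, or 22.2-fold higher. miR-449b read 34.7 in NCS cells and was undetermined in untreated cells, which at this limit allows no fold. The opposite arm miR-449b* read 33.5 in NCS and 33.7 in untreated cells, a log2 ratio of -0.61.

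miR-34a read 23.6 in NCS and 35.8 in untreated cells. Against the limit of 35 this is at least 1592-fold higher. Its opposite arm miR-34a* read 26.8 in NCS and 27.3 in untreated cells, and its log2 ratio was -0.14. miR-34c-3p, the opposite arm of miR-34c-5p, read 29.5 in NCS and 30.7 in untreated cells, at 0.51. As read, the arms of a hairpin therefore moved unequally at miR-34a and miR-34c, while both arms of miR-34b were higher. For miR-34a this rests on the untreated reading of 35.8, which is set beside its neighbouring wells below.

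Of the 7 quantified members 4 were at least 2-fold higher and 0 lower, where 16.9% of 498 quantified miRNAs were higher and 22.3% lower. The members' median log2 ratio was 1.46, against -0.38 over all quantified miRNAs. The 2 members outside this count are miR-34a and miR-449b, which were not read under 35 in untreated cells. Wells repeated on both panels gave a technical SD of 0.79 for a log2 ratio in this pair, estimated from 7 assays. It was 0.35 over the 6 assays other than miR-423-5p, whose panels differed by 2.71. This SD covers wells and plates for the repeated assays, none of which is a family member. Whether it holds for readings close to the limit was not tested, and the spread between cultures is not known.

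The plates carried a position pattern, so each member was also set among the wells that share its panel and its part of the plate, with columns 7 to 18 called middle and the others outer. In the outer columns of panel I, miR-34c-5p had the highest ratio of 140 quantified miRNAs and miR-34b ranked 6, where the median was -0.16 and 9.29% were higher. In the middle columns of panel II, miR-34b* had the highest ratio of 130, where the median was -0.96 and 3.08% were higher. miR-449a ranked 15 of 113 in the middle block of panel I, where the median was 1.21 and 55.8% of the miRNAs were higher. miR-34c-3p ranked 41 of 140, miR-449b* 41 of 130 and miR-34a*, in the outer columns of panel II, 23 of 115. The 5p arms from chromosome 11 thus had the highest ratios among the quantified miRNAs of their blocks, on different plates. Wells not read under 35 in both samples are outside these ranks, and some had higher ratios as read. Examples are miR-144 at 7.16 in the block of miR-34c-5p and miR-1238 at 4.19 in that of miR-34b*. The ranks also depend on where the blocks were cut, since miR-34c-5p lies in column 6 and miR-34b* in column 7. In the other block of panel II, quantified miR-1183 was above miR-34b*, at 1.51. In the other block of panel I, several quantified miRNAs were above miR-34c-5p, such as miR-16 at 4.98. miR-449a lay in a block where most quantified miRNAs were called.

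**Figure D2:**
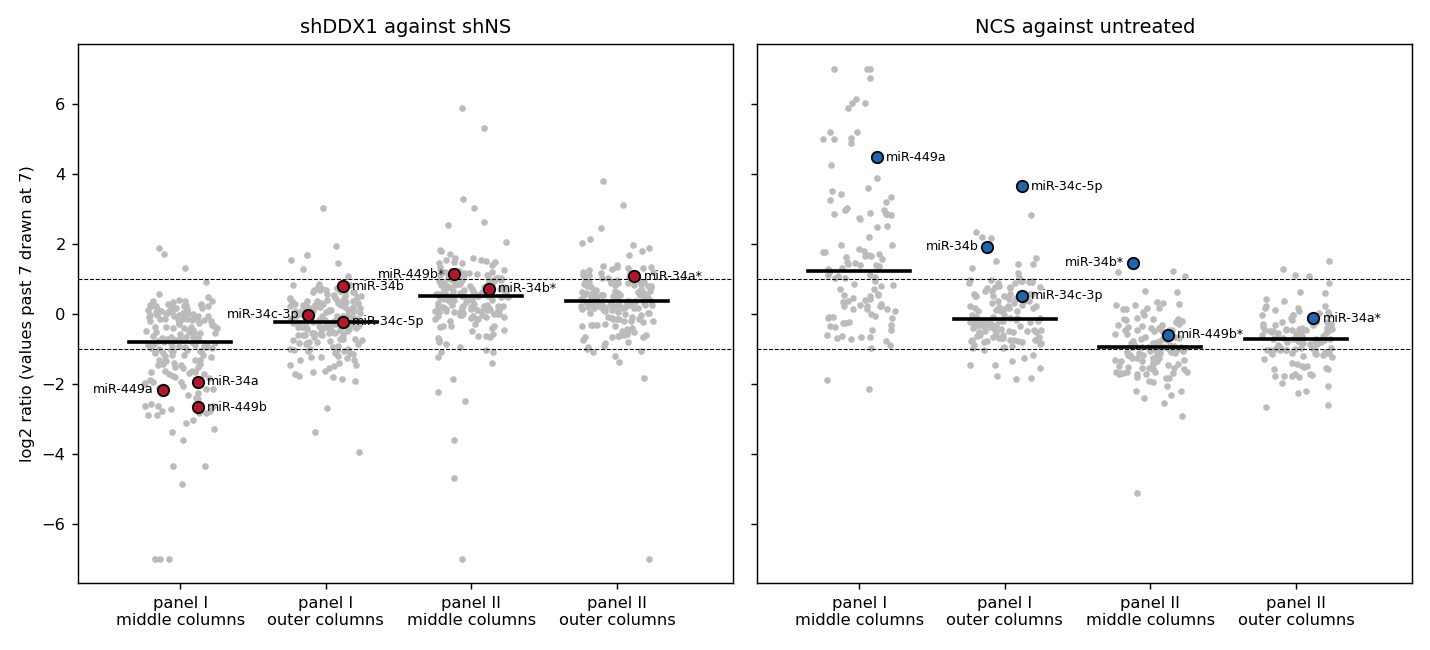
Centred log2 ratio of each quantified miRNA (grey) and of the family members (coloured, named) by panel and column block, for shDDX1 against shNS (left) and NCS against untreated (right). Black bars are block medians and dashed lines mark 2-fold. After NCS, miR-34c-5p and miR-34b* are the highest points of their blocks, and in shDDX1 the 3 members of the panel I middle block lie below its median of -0.82.

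The reading of miR-34a in untreated cells stood apart from the other samples. Within panel I it was read earlier than 86.1% of the other miRNA wells in shDDX1, 92.8% in shNS, 91.4% in NCS and 28.9% in untreated cells. Its opposite arm was read earlier than 90.7%, 89.3%, 96.2% and 94.0% of panel II wells in the same order. Of 60 panel I miRNA wells with a Ct from 12 to under 22 in shNS, 5 did not read under 35 in untreated cells, and these were miR-34a, let-7f, miR-329, miR-572 and miR-548c-3p. Of the 24 miRNA wells within 2 rows and 2 columns of miR-34a, 24 read under 35 in shDDX1, 24 in shNS, 21 in NCS and 12 in untreated cells. Over all of panel I the counts were 368, 371, 317 and 256 in that order. Its middle columns held 185 quantified miRNAs in the shRNA pair and 113 in the NCS pair, its outer columns 181 and 140. The 24 wells near miR-34a included miR-16 at Ct 22.7 in NCS and 28.4 in untreated cells, and miR-625*, in the next well, at 28.2 in NCS and 39.9 in untreated cells. miR-744, on the other side, read 28.4 in NCS and 28.8 in untreated cells, and miR-21 19.7 in NCS and 23.4 in untreated cells. Whether the well, the plate region or the cells account for the late reading was not tested.

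**Figure D3:**
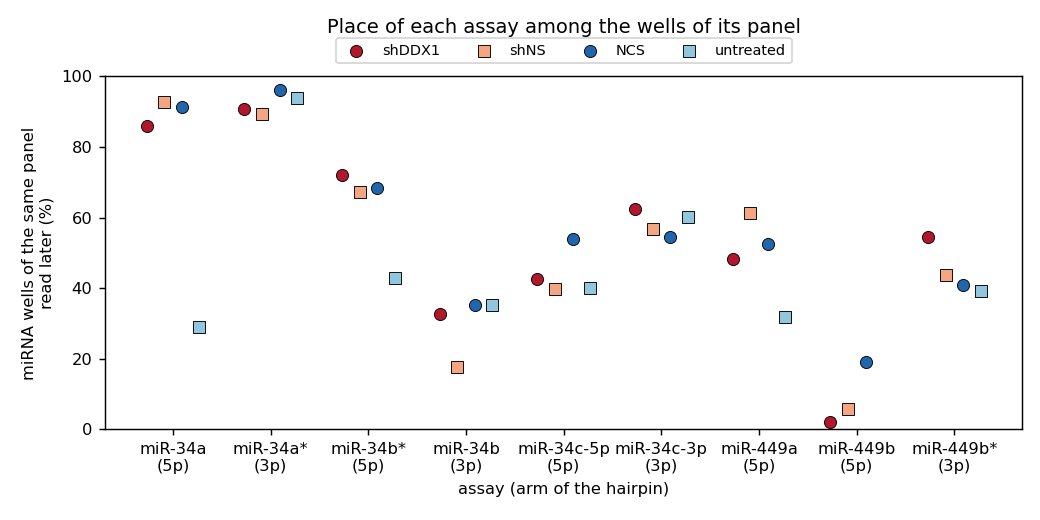
Share of the miRNA wells of the same panel that were read later than each assay, in percent, in the 4 samples. miR-34a lies at 86.1% to 92.8% in shDDX1, shNS and NCS and at 28.9% in untreated cells, while miR-34a* lies between 89.3% and 96.2% in all 4.

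The arms of each hairpin were compared through the Ct of the 3p assay minus that of the 5p assay, read for its change within a pair. For miR-34a this was 3.12 cycles in NCS cells and, with the untreated 5p reading past the limit, at most -7.65 in untreated cells, a change of at least 10.8 cycles. In shDDX1 it was 1.75 and in shNS 4.75 cycles. For miR-34c, whose arms are both in outer columns of panel I, it was -0.12 cycles in NCS and -3.26 in untreated cells, and -2.12 in shDDX1 and -1.93 in shNS. The NCS pair thus differed by 3.13 cycles and the shRNA pair by -0.19. For miR-34b it was 0.79 in NCS and 1.24 in untreated cells, and 1.94 in shDDX1 and 2.01 in shNS. For miR-449b it was -1.14 in NCS, -6.08 in shDDX1 and -2.29 in shNS. The arms of miR-34a, miR-34b and miR-449b are measured on different panels, so their differences also carry the difference between plates, whereas those of miR-34c do not. After NCS the arms of miR-34b differed in log2 ratio (5p minus 3p) by -0.45 under the common centring, by 1.18 with each panel centred separately, and by 0.19 to 0.64 with plate calibrators, neighbouring wells, column blocks or the authors' deposited tables, so this sign depended on the setting.

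**Figure D4:**
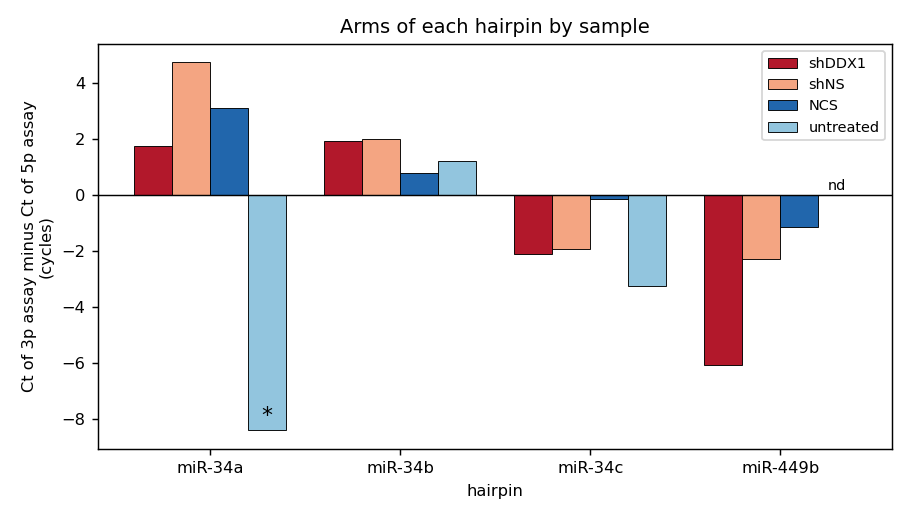
Ct of the 3p assay minus Ct of the 5p assay, in cycles, for the 4 hairpins with both arms measured, by sample. Assay efficiencies differ, so bars are read for their change within a pair. The miR-34a bar of untreated cells (asterisk) stands at -8.41 as read, from a 5p Ct past the limit, and at most -7.65 at the limit, and no value exists for miR-449b in untreated cells (nd).

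In shDDX1 cells, the 5p arms from chromosomes 1 and 5, miR-34a, miR-449a and miR-449b, were lower than in shNS. For miR-34a the Ct was 22.2 in shDDX1 and 20.001 in shNS, or 3.83-fold lower. miR-449a read 27.3 in shDDX1 and 24.8 in shNS, 4.51-fold lower. miR-449b read 34.4 in shDDX1 and 31.4 in shNS, 6.36-fold lower. The members from chromosome 11 were within 2-fold, although miR-34b passed it on the higher side under 2 of 10 settings, at log2 ratios of 1.21 with each panel centred on its own wells and 1.16 with plate calibrators. miR-34c-5p read 27.8 in shDDX1 and 27.3 in shNS, with a log2 ratio of -0.22. miR-34c-3p read 25.7 in shDDX1 and 25.3 in shNS, at -0.03. miR-34b* read 26.9 in shDDX1 and 27.3 in shNS, at 0.71, and miR-34b read 28.8 in shDDX1 and 29.3 in shNS, at 0.79.

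The remaining 3p arms were read earlier in shDDX1. miR-34a* read 23.99 in shDDX1 and 24.7 in shNS, 2.09-fold higher, and miR-449b* read 28.3 in shDDX1 and 29.1 in shNS, 2.17-fold higher. Neither reached 2-fold when each panel was centred on its own wells, where the log2 ratios were 0.63 and 0.68. In the hairpins miR-34a and miR-449b the arms therefore had ratios of opposite sign in this pair. The signs held under each of 10 settings of scale and plate position, but the sizes did not. With neighbouring wells subtracted the ratios were -0.53 for miR-34a and 0.15 for miR-34a*, the latter within this pair's technical SD of 0.38. They were -1.93 for miR-449b and 0.62 for miR-449b*. Block medians had the same opposite signs, at -0.82 for miR-34a and miR-449b, 0.37 for miR-34a* and 0.51 for miR-449b*. Both arms of miR-449b were read later than the earliest water well of their panel.

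Of the 9 members, all quantified, 3 were lower, where 17.3% of 716 quantified miRNAs were lower, and 2 were higher, where 11% were. The median log2 ratio was -0.03, against 0.04 over all quantified miRNAs. The technical SD of a log2 ratio in this pair was 0.38 from the same 7 assays. The 3 lower members were all in the middle block of panel I. There 76 of 185 miRNAs, or 41.1%, were lower and the median was -0.82. Counted from the lowest of these 185, miR-449b ranked 19, miR-449a 28 and miR-34a 38. The 3 members in the outer columns of panel I, where 16.6% were lower, were within 2-fold. Both higher members were on panel II, where 2 of 3 members and 19.7% of 350 quantified miRNAs were higher. On panel I 0 members and 2.73% of 366 were higher.

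When each panel and column block was centred on its own wells, a setting chosen after the data were seen, the log2 ratios in shDDX1 were -1.24 for miR-34a, -1.47 for miR-449a and -1.97 for miR-449b. After subtraction of the median of neighbouring wells they were -0.53, -1.35 and -1.93, so that miR-34a was no longer 2-fold lower. In the NCS pair the block centring gave 3.61 for miR-34c-5p, 2.39 for miR-34b*, 1.88 for miR-34b and 2.71 for miR-449a. Subtraction of neighbouring wells gave 3.23, 2.42, 2.23 and 3.04, and each stayed at least 2-fold higher. Both settings drew only on wells read under 35, so wells lost in untreated cells are outside them. The bound for miR-34a was a log2 ratio of 8.87 with block centring. Its subtraction of neighbouring wells rested on the 12 neighbours read in both samples and gave 9.47.

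**Figure D5:**
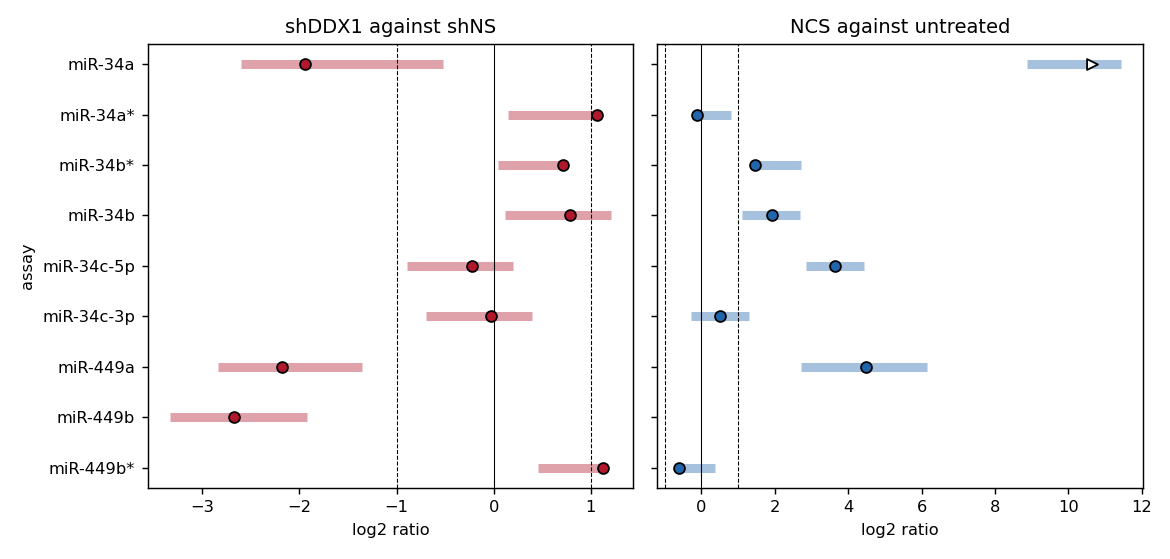
Centred log2 ratio of each assay (point; open triangle for the lower bound of miR-34a) and its range over 10 settings of scale and plate position (bar), for shDDX1 against shNS (left) and NCS against untreated (right), with dashed lines at 2-fold. After NCS, miR-34c-5p ranges from 2.84 to 4.43, miR-34b from 1.11 to 2.70 and miR-34b* from 1.46 to 2.71, and in shDDX1 miR-34a reaches -0.53.

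After NCS, miR-34c-5p, miR-34b, miR-34b*, miR-449a and miR-34a were at least 2-fold higher under each of the 10 settings, with miR-34a as a bound in 9 of them. miR-34c-3p passed 2-fold in 3, and its log2 ratio ran from -0.30 to 1.29. miR-34a* ran from -0.14 to 0.81 and miR-449b* from -0.61 to 0.37, and neither passed 2-fold in any. In shDDX1, miR-449a and miR-449b were at least 2-fold lower in 10 of 10 settings and miR-34a in 9. The higher calls held in fewer, in 1 for miR-34a* and in 2 for miR-449b*. miR-34c-5p ran from -0.89 to 0.20 and miR-34c-3p from -0.70 to 0.39, so their sign depended on the reference. In the authors' deposited table of folds, miR-34c-5p was 20.5-fold, miR-449a 71.1-fold and miR-34a 2261-fold the untreated value, and in shDDX1 miR-34a was at 0.211, miR-449a at 0.179 and miR-449b at 0.127 of shNS.

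Other miRNAs linked to p53 were set beside the family. The list held the reported transcriptional targets miR-107, miR-192, miR-192*, miR-194, miR-194*, miR-215 and miR-605, and miR-16, miR-16-1*, miR-143, miR-143*, miR-145 and miR-145*, whose maturation p53 is reported to assist, and 12 of 13 were among the wells analysed here. miR-16-2*, the opposite arm of the other miR-16 hairpin, was not on the list and had log2 ratios of 1.48 in shDDX1 and -0.97 after NCS. After NCS 2 of the 10 quantified were higher and 2 lower, with a median log2 ratio of 0.18. The highest was miR-16 at 4.98, in the same block of panel I as miR-34a and miR-449a, and the lowest miR-194* at -1.19. In shDDX1 1 of 12 was higher and 1 lower, with a median of -0.21, from miR-16 at -2.41 to miR-194* at 1.12. Set against the 16.9% of all quantified miRNAs that were higher after NCS and the 17.3% that were lower in shDDX1, the list did not stand out.

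The miRNAs with the most similar profiles were found by Euclidean distance between centred levels over the 4 samples, each miRNA set to its own mean, among 613 other miRNAs with a Ct in all 4. miR-34a was nearest to miR-625*, let-7f and miR-361-3p, at distances of 0.56, 1.78 and 2.50 on the log2 scale. All of these lie in the middle columns of panel I, miR-625* in the well beside miR-34a, and in untreated cells they read Ct 39.9, 35.6 and 39.1. miR-449a was nearest to miR-371-5p, miR-32 and miR-96, again in the middle columns of panel I, at 0.59, 0.92 and 1.004. miR-34c-5p was nearest to miR-154, miR-616 and miR-148b, at 0.20, 0.49 and 0.53, and miR-34b* to miR-1179, miR-145* and miR-33a, at 0.38, 0.40 and 0.42. miR-34b was nearest to miR-149*, miR-612 and miR-517a, at 0.50, 0.52 and 0.54, and miR-34c-3p to miR-675b, miR-374b* and miR-643, at 0.09, 0.30 and 0.31. miR-34a* was nearest to miR-616*, miR-181c* and miR-141*, at 0.25, 0.25 and 0.28, and miR-449b* to miR-23a*, miR-22 and miR-196b*, at 0.30, 0.38 and 0.38. Readings past 35 also entered distances other than those of miR-34a. In untreated cells miR-371-5p read 39.2, miR-154 35.8, miR-616 37.3, miR-145* 35.1, miR-612 39.2 and miR-374b* 36.4. In NCS cells miR-612 read 37.2 and miR-374b* 35.3. No member of the family was among the nearest because members were left out of this ranking.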

How the data were processed

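Mature miRNA was measured by quantitative PCR with SYBR Green on the 2 human 384-well panels of an Exiqon array, from Trizol total RNA, per the labels' protocols. How Ct was called (threshold, baseline) is not given in the sources used here. Deposited by the authors were 3 tables, of Ct, of shifted Ct and of linear fold over each pair's control. The fold for miR-449b after NCS in the authors' deposited table stands against a missing untreated value and was not used, nor were that table's 2 control columns.

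Levels were minus Ct, centred per sample on the mean of the 499 of 740 miRNA wells under Ct 35 in all 4 samples, and a log2 ratio was their difference within a pair. The 3 assays on both panels were averaged. With 1 sample per group no test was possible. The technical SD came from 7 assays repeated on both panels, and calibrator wells, 3 per plate, varied with a pooled SD of 0.191 cycles. The computation was tested on simulated plates. These held no undetermined wells and no position pattern in the ratios, so the test does not bear on either. Arms were assigned from assay names, since the files hold no probe sequences. All members, the miRNAs that share a 5p seed and the 3 nearest profiles per member were named by rule, with the ends of each list. Members and lists were chosen with earlier results of these data known. Python 3.11.15 and pandas 2.3.3 were used.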

Additional observations from a re-analysis of the deposited data

Results flagged for a closer look

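Signal in water wells was looked at because those wells lie outside the comparisons. The earliest water well of panel I read Ct 27.3 in shDDX1 and 27.8 in shNS, and that of panel II 26.5 in shDDX1 and 26.6 in shNS, while 0 water wells gave a Ct in NCS or untreated cells. Later than the earliest water well of their own panel were miR-34b, miR-449b, miR-34b* and miR-449b* in both samples and miR-34c-5p, at 27.8, in shDDX1. miR-34a, miR-34a*, miR-449a and miR-34c-3p were read before it in both, miR-449a in shDDX1 by less than 0.1 cycles. The part of background signal in the late readings was not tested.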

How the results depend on the processing

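The 15 alternatives changed 1 choice each, and centring by panel and column block was added once the data had been seen. No paired analysis was possible because there is only 1 sample in a group. The count of members lower in shDDX1, 3 of 9, was 2 or 3 under every alternative run. The share of all quantified miRNAs that were lower moved more, from 17.3% under the common centring to 14.9% with column blocks. It was 24.6% without centring, 29.3% with reference miRNAs and 35.9% with small RNA references, where the member count was still 3 of 9. The count higher after NCS, 4 of 7, was 4 or 5 except with a Ct limit of 32, which left 2 quantified members and 0 higher, and at 4-fold, where it was 2. Of all quantified miRNAs 16.9% were higher under the common centring. Where the count was 5 with small RNA references and without centring, this share was 31.7% and 28.9%. The count higher in shDDX1, 2 of 9, stayed 2 with Ct limits of 37, 32 or none. It was 1 with median centring, which left miR-449b*, and 1 per panel and with plate calibrators, where it was miR-34b and neither miR-34a* nor miR-449b*, 4 at 1.5-fold, and 0 with small RNA references, reference miRNAs, no centring, neighbouring wells subtracted, column blocks, 4-fold and both tables deposited by the authors. At 1.5-fold 1 member was lower after NCS, miR-449b*, against 0. Of the single log2 ratios and arm differences, none that was past 2-fold under the common centring changed sign. Among the smaller ones, the arm difference of miR-34b after NCS, -0.45, did so. The ratios of miR-34c-3p in both pairs, miR-34c-5p in shDDX1, and miR-34a* and miR-449b* after NCS also changed sign. The last 2 were below 0 under the common centring but above 0 in 8 and 7 of 10 settings. Over all miRNAs, higher ones were 38.9% of those past 2-fold in shDDX1 and 43.1% after NCS. These shares were 8.54% and 86.3% with small RNA references, 13.2% and 61.1% with reference miRNAs, 19.3% and 83.2% without centring and 27.4% and 70.2% with plate calibrators. The median ratio moved by -0.67 and 0.79, -0.46 and 0.33, -0.30 and 0.73, and -0.10 and 0.43 in that order. Untreated Ct values of 33.3 to 34.97 limit the ratios of the members called after NCS.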
